A study of Mus musculus with 4 samples.

Results

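The growing oocyte and the granulosa cells around it depend on each other throughout follicle growth, and 6 genes of that exchange were examined here in mouse oocytes of 2 chromatin configurations. The genes are Gdf9, Bmp15, Bmp6, Fgf8, Kit and Gja4, chosen by name for their known roles, with earlier results of these data known. All 6 are among the 16861 genes with a value in every library. RNA was measured in germinal vesicle oocytes, which are fully grown and arrested in the first meiotic prophase, from female C57BL/6J mice 3 weeks old. The configurations are named for whether the nucleolus is enclosed by a rim of DNA, which is present in surrounded nucleolus (SN) and missing in non-surrounded nucleolus (NSN) oocytes. Oocytes of both groups came from antral follicles, were stripped of cumulus cells by pipetting, were sorted under a fluorescence microscope after staining with the DNA dye Hoechst in medium with milrinone, and lost their zona pellucida to pronase E. There were 2 NSN and 2 SN libraries, each a pool of 15 oocytes prepared by Smart-seq2, in which cDNA is primed at the poly(A) tail and amplified. Nothing in the labels ties a library to particular animals, so p-values describe the spread between these 4 libraries, which may be technical.

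Values are FPKM, the read pairs of a gene scaled for its length and for the size of the library. Library totals recovered from the values were 17069772 to 17998361 read pairs. FPKM is a share of a library, so fewer transcripts of a gene per oocyte cannot be told apart from more transcripts of other genes. Priming at the poly(A) tail captures transcripts that carry one, and tail length was not measured. The granulosa cells themselves were not sampled. Of 13 oocyte genes used to check the cell type, the summed FPKM was 22206 to 23816 in the NSN and 16331 to 17109 in the SN libraries. Of 19 granulosa and cumulus genes, 11 could be analysed here and summed to 9.94 to 14.0 FPKM in NSN and 13.7 to 14.4 FPKM in SN libraries. Of those 11, Cyp19a1 (aromatase) held 5.81 to 8.38 FPKM and 7 were under 1 FPKM in every library. Of 9 cumulus genes induced around ovulation, 3 could be analysed. They summed to 4.05 to 5.16 FPKM in NSN and 5.32 to 6.70 FPKM in SN libraries, of which Egfr held 4.00 to 6.44 FPKM. The part of granulosa and cumulus transcripts in the results was not tested.

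GDF9 and BMP15 are related ligands of the TGF-beta superfamily that oocytes secrete, alone or as a heterodimer, to drive granulosa cell proliferation and cumulus expansion through type I and type II serine-threonine kinase receptors. BMP6 is a further oocyte ligand that signals through BMP receptors, and FGF8 acts together with BMP15 to promote glycolysis in cumulus cells. The other 2 genes serve exchange in the opposite direction or in both. KIT on the oocyte surface receives Kit ligand made by granulosa cells, and GJA4 (connexin 37) forms the gap junctions through which granulosa cells feed the oocyte.

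The levels of the 6 genes ran from 4.43 FPKM (Bmp6, NSN replicate 1) to 5239 FPKM (Gdf9, the same library), and their order was the same in all 4 libraries: Gdf9, Bmp15, Gja4, Fgf8, Kit, Bmp6, from highest to lowest. Gdf9 ranked 7 of 16861 genes by FPKM in both NSN libraries and was at ranks 21 (SN replicate 1) and 27 (SN replicate 2), and Bmp15 moved from ranks 36 and 38 to ranks 52 and 54. Gja4 ranked between 134 and 180, Fgf8 between 803 and 1185, Kit between 2597 and 2796, and Bmp6 between 5082 and 5614. No pair of neighbours in this order overlapped in FPKM over the libraries. Together the 6 genes took 1.67% and 1.54% of all read pairs in the NSN libraries, against 0.951% and 0.868% in the SN libraries.

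Whether the transcripts of these genes differ with the configuration was asked by comparing log2(FPKM + 0.5) between the SN and NSN libraries with limma across the 11672 genes whose mean over the libraries reached 0.5 FPKM. The word called is used for a gene with a Benjamini-Hochberg adjusted p under 0.05, adjusted over all genes tested, and a fold change of at least 1.2. Of the 6 genes, 2 were called, Gdf9 and Bmp15, both lower in SN oocytes. Both calls held in 8 of 10 other settings and ended in 2, with all listed genes tested (adjusted p = 0.054 in limma for both) and without the variance trend (adjusted p = 0.092 in limma for both). No gene of any kind was called in either of those 2 settings. Over all genes tested, 7.93% were called, 5.95% higher and 1.98% lower in SN oocytes, and 31.7% had an unadjusted p under 0.05. Of the 13 oocyte genes above, 9 were called lower and 0 higher by limma, and of the 70 genes of any kind at or above a mean of 1000 FPKM, 14 were called lower and 0 higher. These sets overlap, since the 14 include Gdf9, Bmp15 and some of the oocyte genes, among them Zp3, Padi6 and Npm2. The SN values were under every NSN value for Gdf9, Bmp15 and Gja4, and over every NSN value for Kit and Bmp6, while the groups overlapped for Fgf8. Such separation was common, at 62.6% of all genes tested, with 17.8% below and 44.8% above, so for a single gene it says little. With 2 libraries a group, an exact two-sided permutation test of 1 gene cannot give a p under 0.333.

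**Figure D1:**
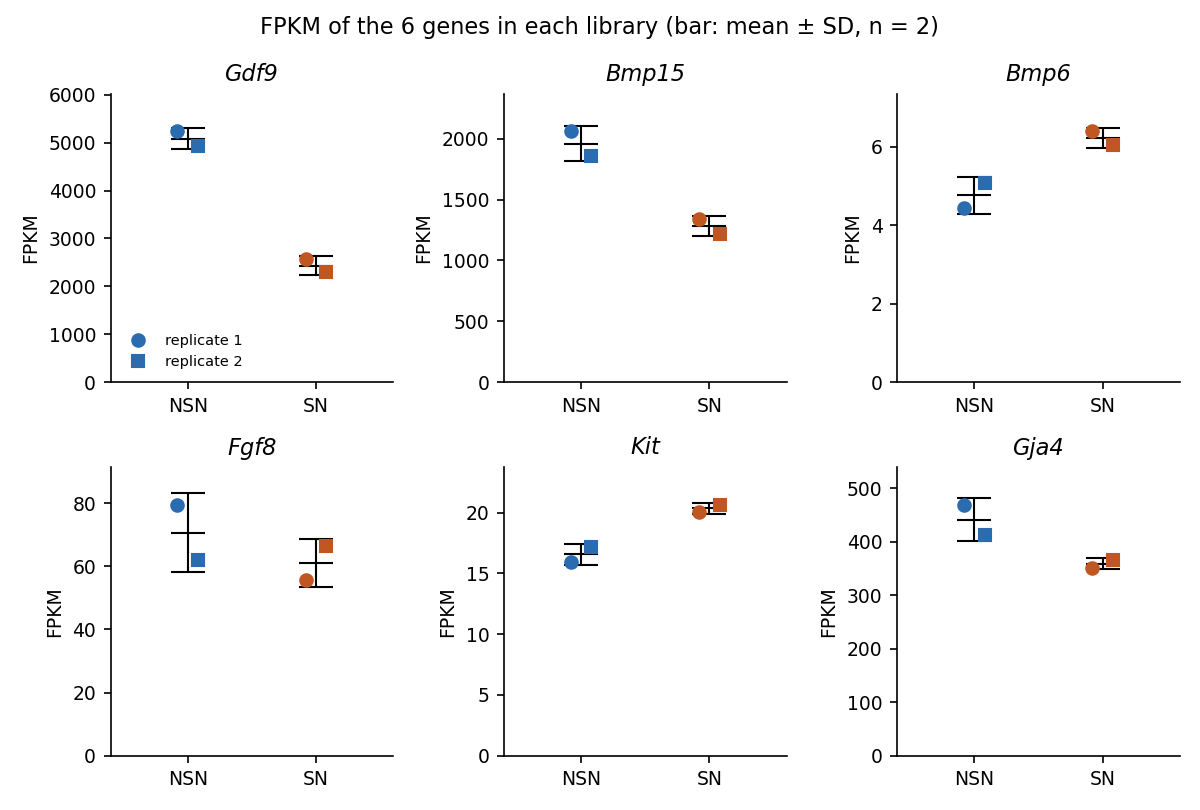
FPKM (linear axis from 0) of each gene in the 2 NSN and 2 SN libraries, with circles for replicate 1, squares for replicate 2 and bars for the mean ± SD. Gdf9, Bmp15 and Gja4 are lower in both SN libraries, Bmp6 and Kit are higher in both, and the Fgf8 points overlap.

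Gdf9 encodes growth differentiation factor 9, without which follicles do not grow past the primary stage. The gene (ENSMUSG00000018238.7) lies on the plus strand of chromosome 11 of GRCm39 from 53321850 to 53328731. Its FPKM was 5239 and 4929 in the NSN libraries, against 2575 and 2289 in the SN libraries. The 4 values fall into separate groups, with the higher SN library well under the lower NSN library. Gdf9 was 5084 ± 219 FPKM (SD, n = 2) in NSN oocytes and 2432 ± 202 FPKM (SD, n = 2) in SN oocytes, so that SN oocytes held 47.8% of the NSN level. The log2 fold change was -1.07 (standard error, SE, 0.08, 95% interval from -1.26 to -0.87, adjusted p = 0.036 in limma), the 50th lowest of the 11672 genes tested. These values rest on 73866 to 163518 read pairs per library, so counting error is small beside the difference between replicates. With 1 library left out, and so 1 library in a group, the log2 fold change ran from -1.15 to -0.98. The call ended without NSN replicate 1 (log2 fold change -1.02), and the other 3 omissions kept it.

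In the annotation used here, the start of Gdf9 lies 197 bases from that of Uqcrq, a subunit gene of respiratory complex III on the opposite strand. The exons of the pair share 1 base. That annotation gives Gdf9 2031 exonic bases, against a length of 1793 recovered from the FPKM. Uqcrq had 26.4 and 26.8 FPKM in the NSN and 33.3 and 34.5 FPKM in the SN libraries. Its log2 fold change of 0.34 (SE 0.09, adjusted p = 0.058 in limma) had the opposite sign to that of Gdf9 and did not pass the threshold.

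Bmp15 encodes bone morphogenetic protein 15, the closest partner of GDF9. The gene (ENSMUSG00000023279.8) lies on the minus strand of the X chromosome of GRCm39 from 6226161 to 6232775. Its FPKM was 2062 and 1857 in the NSN libraries, against 1338 and 1221 in the SN libraries. Again both SN values lay below both NSN values. Bmp15 was 1959 ± 145 FPKM (SD, n = 2) in NSN oocytes and 1279 ± 82.7 FPKM (SD, n = 2) in SN oocytes, which is 65.3% of the NSN level. The log2 fold change was -0.61 (SE 0.08, 95% interval from -0.82 to -0.41, adjusted p = 0.036 in limma). With 1 library left out, and so 1 library in a group, the call was lost without NSN replicate 1 (log2 fold change -0.54) and without SN replicate 2 (-0.55).

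Bmp6 encodes bone morphogenetic protein 6 (ENSMUSG00000039004.8, plus strand of chromosome 13 from 38529065 to 38684280) and was the ligand with the lowest level. Its FPKM was 4.43 and 5.08 in the NSN libraries, against 6.39 and 6.05 in the SN libraries, on 277 to 392 read pairs. Exact Poisson 95% intervals, which cover counting error only, overlapped for NSN replicate 2 (4.55 to 5.66 FPKM) and SN replicate 2 (5.46 to 6.68 FPKM). The interval of NSN replicate 1 (3.92 to 4.98 FPKM) lay below those of both SN libraries. That of SN replicate 1 (5.77 to 7.06 FPKM) lay above those of both NSN libraries. Bmp6 was 4.75 ± 0.462 FPKM (SD, n = 2) in NSN oocytes and 6.22 ± 0.244 FPKM (SD, n = 2) in SN oocytes. The log2 fold change of 0.36 (SE 0.13, 95% interval from 0.05 to 0.66, adjusted p = 0.12 in limma) did not pass the threshold. In the annotation used here, 5.77% of its exonic bases are shared with Txndc5 on the opposite strand, and counting ignored strand. That annotation gives Bmp6 3920 exonic bases, against a length of 3593 recovered from the FPKM. Whether the shared bases entered the Bmp6 values is therefore not known. Txndc5 had 53.4 and 50.1 FPKM in the NSN and 40.8 and 40.0 FPKM in the SN libraries, a log2 fold change of -0.35 (adjusted p = 0.052 in limma).

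Fgf8 encodes fibroblast growth factor 8 (ENSMUSG00000025219.14, minus strand of chromosome 19 from 45725237 to 45731354). Its FPKM was 79.5 and 61.9 in the NSN libraries, against 55.8 and 66.4 in the SN libraries. SN replicate 2 lay between the NSN libraries, so the groups overlapped. Fgf8 was 70.7 ± 12.5 FPKM (SD, n = 2) in NSN oocytes and 61.1 ± 7.51 FPKM (SD, n = 2) in SN oocytes, with a log2 fold change of -0.20 (SE 0.14, adjusted p = 0.36 in limma). Its 95% interval of -0.54 to 0.14 includes 0 and also the value of -0.29 measured for Gja4. Leaving out 1 library moved the value from -0.38 without NSN replicate 2 to -0.02 without NSN replicate 1, the widest spread among the 6 genes. An lncRNA gene on the opposite strand, Gm59181, overlaps 13.7% of the exonic bases of Fgf8 in the annotation used here, and could not be analysed.

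Kit encodes the receptor tyrosine kinase through which granulosa cells support oocyte growth and survival (ENSMUSG00000005672.14, plus strand of chromosome 5 from 75735576 to 75817404). Its FPKM was 15.98 and 17.19 in the NSN libraries, against 20.05 and 20.67 in the SN libraries. Both SN values were above both NSN values, and replicates differed by little. The annotation used here gives Kit 9470 exonic bases, against a length of 5253 recovered from the FPKM. Kit was 16.6 ± 0.855 FPKM (SD, n = 2) in NSN oocytes and 20.4 ± 0.435 FPKM (SD, n = 2) in SN oocytes. The log2 fold change of 0.29 (SE 0.10, 95% interval from 0.06 to 0.52, adjusted p = 0.10 in limma) did not pass the threshold. It passed in 1 of 10 other settings, the voom method of limma applied to recovered read pairs (adjusted p = 0.045 in limma), where 19.7% of genes were called, 15.1% higher and 4.59% lower.

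Gja4 encodes connexin 37, the connexin that the oocyte contributes to its gap junctions with granulosa cells (ENSMUSG00000050234.9, minus strand of chromosome 4 from 127205214 to 127207851). Its FPKM was 469 and 412 in the NSN libraries, against 351 and 366 in the SN libraries. Both SN values were below both NSN values, and the gap between the groups was smaller than the gap between the NSN libraries. Gja4 was 441 ± 40.1 FPKM (SD, n = 2) in NSN oocytes and 359 ± 10.8 FPKM (SD, n = 2) in SN oocytes, or 81.4% of the NSN level. The log2 fold change of -0.29 (SE 0.09, 95% interval from -0.50 to -0.09, adjusted p = 0.077 in limma) did not pass the threshold. It passed in 2 of 10 other settings, a minimum mean of 5 FPKM (adjusted p = 0.038 in limma, with 27.1% of the genes tested called, 21.2% higher and 5.92% lower) and voom (adjusted p = 0.025 in limma). Of the exonic bases of Gja4, 31.8% lie in the lncRNA gene Gm69784 on the opposite strand in the annotation used here. That annotation gives Gja4 2155 exonic bases, against a length of 1685 recovered from the FPKM. The share of the counted bases that overlap is therefore not known, and Gm69784 could not be analysed here.

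**Figure D2:**
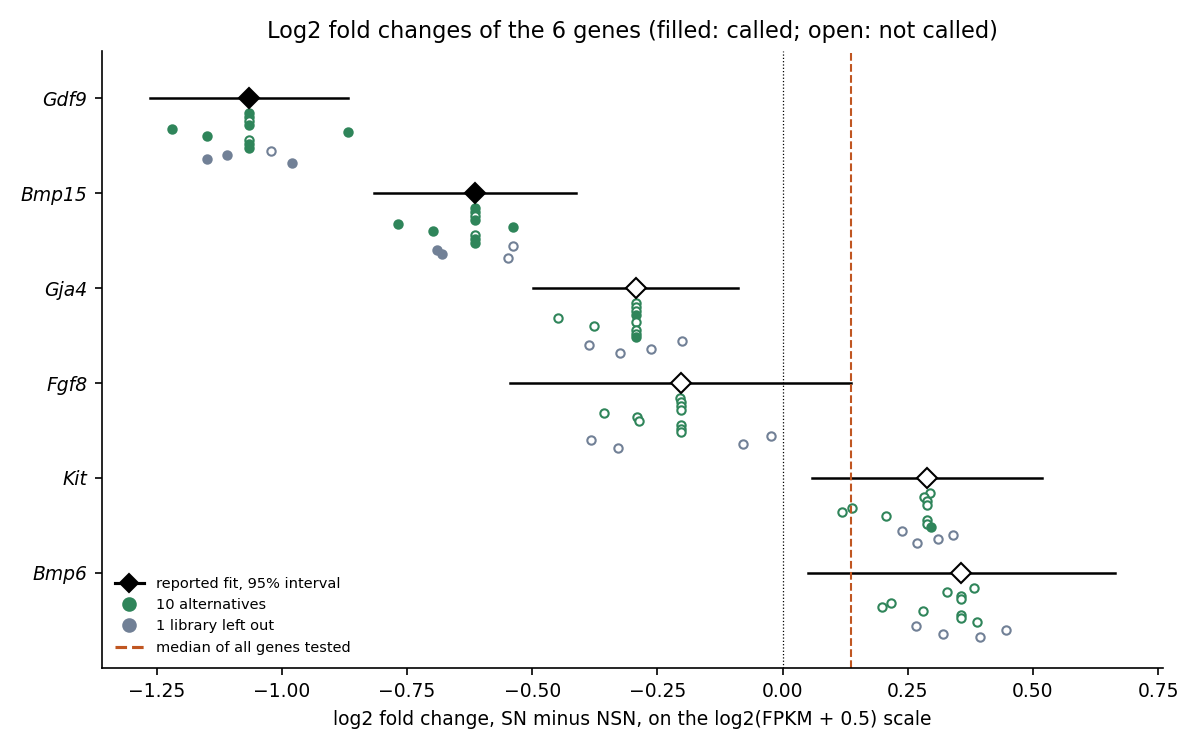
Log2 fold change from NSN to SN oocytes for each gene, with black diamonds and lines for the reported limma fit and its 95% interval, green circles for 10 alternatives and grey circles for fits without 1 library. Filled symbols passed both thresholds, the dashed line is the median of all genes tested at 0.14, and no gene changes sign in any setting shown.

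The scaling of the libraries moves all genes together. The median log2 fold change of all genes tested was 0.14 on the deposited FPKM and 0.005 after each library was rescaled to its median gene, and the calls went from 695 higher and 231 lower to 78 higher and 180 lower. Relative to the median gene, the log2 fold changes were -1.20 for Gdf9, -0.75 for Bmp15, -0.43 for Gja4, -0.34 for Fgf8, 0.15 for Kit and 0.22 for Bmp6. Gdf9 and Bmp15 were called with median scaling (log2 fold changes -1.22 and -0.77, adjusted p = 0.045 in limma for both), as were 2.21% of all genes, 0.668% higher and 1.54% lower. Both were also called with quantile normalization, where 1.97% of genes were called (0.634% higher, 1.34% lower).

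Ratios between genes inside a library do not depend on its scaling. The FPKM of Gdf9 was 2.54 and 2.65 times that of Bmp15 in the NSN libraries and 1.92 and 1.87 times in the SN libraries. The log2 ratio was 1.38 ± 0.04 (SD, n = 2) in NSN oocytes and 0.93 ± 0.03 (SD, n = 2) in SN oocytes. Gdf9 was thus lower relative to Bmp15 in both SN libraries. Gdf9 was also lower relative to Gja4, at 11.2 and 12.0 times its FPKM in NSN against 7.33 and 6.25 times in SN libraries. Bmp15 was 4.40 and 4.50 times Gja4 in NSN and 3.81 and 3.33 times in SN libraries. For 2 pairs the ratios overlapped between the configurations. Bmp6 was 0.277 and 0.296 of Kit in the NSN and 0.319 and 0.293 of Kit in the SN libraries, and Fgf8 was 0.170 and 0.150 of Gja4 in the NSN and 0.159 and 0.181 of Gja4 in the SN libraries. The other 13 of the 15 pairs were separate between the groups, each at the smallest p the exact two-sided permutation test allows with n = 2 a group (0.333, adjusted over the 15 pairs 0.385), so none can pass a threshold of 0.05. The pairs reuse 6 genes, and the share of separate pairs among other genes was not computed, so nothing is read from this count.

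**Figure D3:**
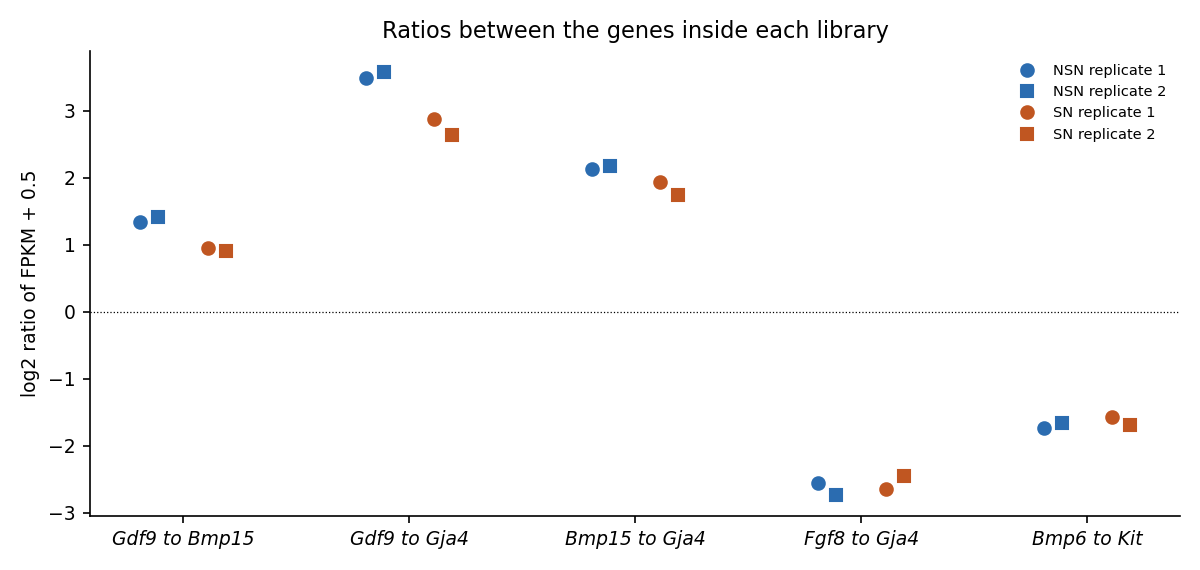
Log2 ratio of FPKM + 0.5 between pairs of the 6 genes in each library (blue, NSN; orange, SN; circles, replicate 1; squares, replicate 2). Gdf9 is lower relative to Bmp15 and Gja4, and Bmp15 lower relative to Gja4, in both SN libraries, and the Fgf8 to Gja4 and Bmp6 to Kit ratios overlap.

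Gdf9 and Bmp15 are among the most abundant transcripts of these oocytes. Of the 70 genes with a mean of at least 1000 FPKM, Gdf9 had the lowest log2 fold change and Bmp15 the 5th lowest, with a median of -0.06 over the 70 genes. The 100 most abundant genes took 38.1% and 37.1% of all read pairs in the NSN libraries, against 33.9% and 33.8% in the SN libraries. With library totals counted without those 100 genes, the log2 fold change of Gdf9 was -1.15 (adjusted p = 0.044 in limma), and that of Bmp15 was -0.70 (adjusted p = 0.044 in limma). In that setting 2.18% of genes were called, 0.968% higher and 1.22% lower.

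**Figure D4:**
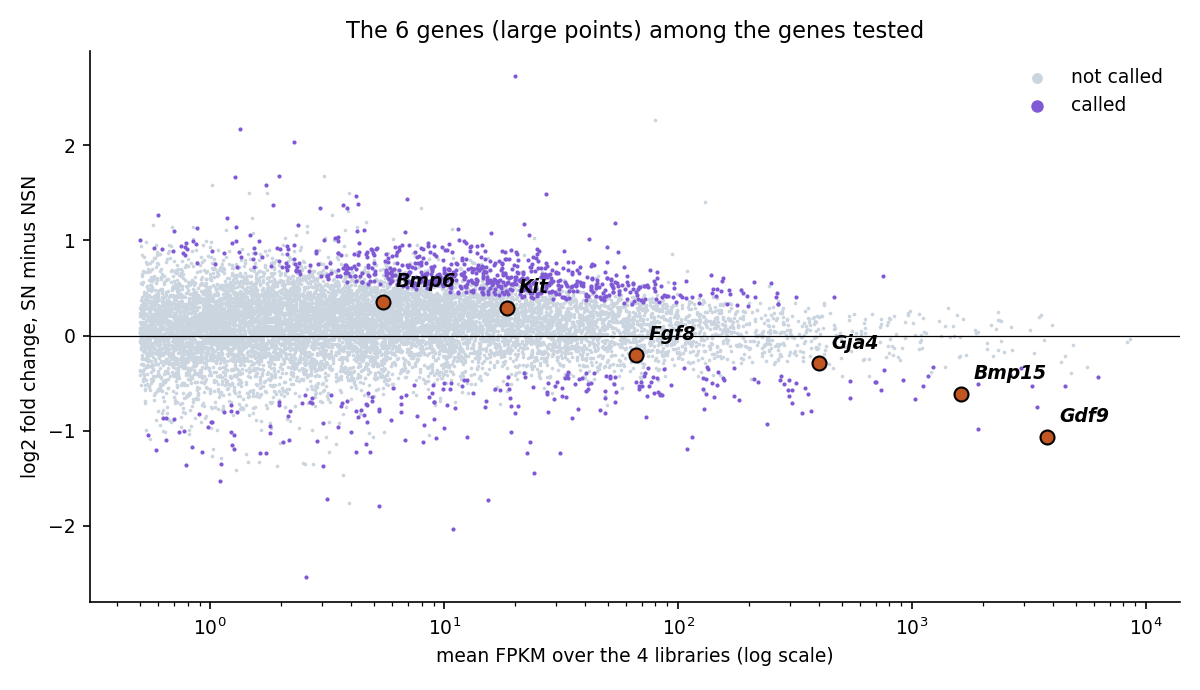
Mean FPKM over the 4 libraries (log axis) against log2 fold change from NSN to SN oocytes for the 11672 genes tested, with purple points for called genes and large orange points for the 6 genes. Gdf9 is the lowest and Bmp15 the 5th lowest point among the 70 genes at or above 1000 FPKM, and the other 4 lie among genes that were not called.

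Promoter sequence was available for 4 of the 6 genes, namely Bmp15, Gja4, Kit and Bmp6, in RefSeq windows on GRCm38.p6, and the 230 bases from 250 to 21 before the start were searched on both strands. Of these 4, the windows of Bmp15 and Gja4 are shown, because they differ in the elements they hold. Both genes had lower values in SN oocytes, and Gja4 was not called. Capitals mark the letters of a Nobox element (TAATTG or TAATTA), an E-box (CANNTG) and a GC box (GGGCGG). NOBOX is an oocyte homeobox factor, and FIGLA binds E-boxes with a partner. The Bmp15 window is chrX:6320745-6320974 and the Gja4 window chr4:127314060-127314289, both on the minus strand and written 5′ to 3′ in the direction of transcription.
Bmp15: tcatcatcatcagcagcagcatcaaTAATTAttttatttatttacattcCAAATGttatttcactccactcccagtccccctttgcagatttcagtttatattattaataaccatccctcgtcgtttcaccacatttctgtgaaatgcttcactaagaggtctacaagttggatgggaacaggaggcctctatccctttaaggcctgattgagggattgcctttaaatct
Gja4: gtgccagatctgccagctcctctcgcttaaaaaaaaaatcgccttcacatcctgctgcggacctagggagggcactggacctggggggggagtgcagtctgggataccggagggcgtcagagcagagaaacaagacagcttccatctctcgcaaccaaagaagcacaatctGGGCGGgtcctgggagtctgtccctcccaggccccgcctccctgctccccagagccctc
The Bmp15 window holds 1 Nobox element and 1 E-box and no GC box, whereas the Gja4 window holds 1 GC box and neither of the others. The first of the 2 windows listed for Kit, the one searched, holds 1 GC box, and the Bmp6 window 2 E-boxes and 1 GC box. The nuclear receptor half-site AGGTCA is in none of the 4. Over 32851 windows of the same length, 10.8% hold a Nobox element, 63.5% an E-box, 29.8% a GC box and 13.0% the half-site. A match describes the letters only.

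The rest of the pathway was read from 9 lists of 139 genes, of which 86 could be analysed here and 63 were tested. Among those 63 genes, 1 was called higher, Bmpr2, and 1 lower, Nobox, with a median log2 fold change of 0.06 against 0.14 for all genes tested. The other 61 did not pass the threshold.

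Of 9 tested TGF-beta superfamily receptor genes, 1 was called higher and 0 lower, with a median of 0.33. Bmpr2, the type II receptor that binds BMP15 and GDF9, had 4.84 and 6.36 FPKM in the NSN and 11.3 and 11.5 FPKM in the SN libraries. Both SN values were above both NSN values, and the log2 fold change was 0.98 (SE 0.15, adjusted p = 0.036 in limma). It was called in 8 of 10 other settings. With 1 library left out, the log2 fold change was 0.79 to 1.16. The call was lost without NSN replicate 1, SN replicate 1 or SN replicate 2. The type I receptors did not pass. Bmpr1b had 13.1 and 15.9 FPKM in NSN and 20.1 and 19.9 FPKM in SN libraries (log2 fold change 0.45, adjusted p = 0.063 in limma), and Acvr1 had a log2 fold change of 0.44 (adjusted p = 0.13 in limma). Tgfbr1, through which GDF9 signals, was at 0.840 to 1.21 FPKM, with a log2 fold change of -0.06 (adjusted p = 0.86 in limma).

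Of the other ligands of the superfamily, 10 of 26 could be analysed and 5 were tested, with 0 called and a median of -0.10. Tgfb2 had the highest level, at 68.2 to 74.3 FPKM, with a log2 fold change of -0.10 (adjusted p = 0.41 in limma). Tgfb3 had 13.0 and 13.4 FPKM in NSN and 11.9 and 10.6 FPKM in SN libraries (log2 fold change -0.22, adjusted p = 0.21 in limma). Bmp5, a close relative of Bmp6, had 8.10 and 9.54 FPKM in NSN and 11.6 and 10.8 FPKM in SN libraries (log2 fold change 0.33, adjusted p = 0.12 in limma). None of the 3 tested proprotein convertases, which cut ligand precursors to release the mature dimer, was called. Furin had a log2 fold change of -0.03 (adjusted p = 0.93 in limma) and Pcsk6 of -0.24 (adjusted p = 0.27 in limma). The 2 tested antagonist genes, Twsg1 and Bambi, were not called and were at 0.602 to 1.08 FPKM.

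None of the 6 tested FGF ligand and receptor genes was called, and their median was 0.06. Fgfr2 had 4.64 and 5.35 FPKM in NSN and 6.40 and 5.91 FPKM in SN libraries (log2 fold change 0.28, adjusted p = 0.19 in limma), and Fgfr1 had a log2 fold change of 0.06 (adjusted p = 0.86 in limma). On the Kit side, 13 of 19 genes were tested and 0 were called. Their log2 fold changes ran from -0.25 to 0.50, with a median of 0.18. Kitl, the ligand that granulosa cells make, was at 1.32 to 1.83 FPKM, with a log2 fold change of 0.17 (adjusted p = 0.51 in limma). Fyn, a Src family kinase, came nearest to the threshold with 8.10 and 8.92 FPKM in NSN against 13.2 and 11.4 FPKM in SN libraries (log2 fold change 0.50, adjusted p = 0.054 in limma). Pik3cd, a catalytic subunit of phosphoinositide 3-kinase, had a log2 fold change of 0.18 (adjusted p = 0.25 in limma) at 30.2 to 37.2 FPKM.

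Gja4 had the highest level of the connexins analysed here, which do not include Gjc1. The other connexins and pannexins tested, 6 of 21, all had at most 2.83 FPKM in every library, and 0 were called, with a median of -0.002. Gja1 (connexin 43), the connexin that joins granulosa cells to each other, was at 0.119 to 0.397 FPKM and below the filter. Among 13 tested genes of cell contact and of the transzonal projections that granulosa cells send to the oocyte, 0 were called. Their log2 fold changes ran from -0.35 to 0.62, with a median of 0.25. The SN values lay above every NSN value for 7 of them and below for 2, close to the 44.8% and 17.8% of all genes tested. Ctnnb1 (beta-catenin) had 26.8 and 30.9 FPKM in NSN against 42.7 and 37.8 FPKM in SN libraries (log2 fold change 0.48, adjusted p = 0.051 in limma). Daam1, a formin, had a log2 fold change of 0.54 (adjusted p = 0.053 in limma), and Jag1, a Notch ligand that oocytes present to granulosa cells, had 0.29 (adjusted p = 0.073 in limma). Rdx (radixin), at 914 to 944 FPKM, had a log2 fold change of -0.01 with a 95% interval of -0.17 to 0.15.

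Of 6 tested regulators of oocyte genes, 1 was called lower and 0 higher, with a median of -0.24. Nobox, an oocyte homeobox factor that acts on Gdf9 and Bmp15 and is also among the 13 oocyte genes above, had 346 and 285 FPKM in the NSN and 165 and 163 FPKM in the SN libraries. Both SN values lay below both NSN values, and the log2 fold change was -0.93 (SE 0.10, adjusted p = 0.036 in limma). It was called in 8 of 10 other settings. With 1 library left out, the log2 fold change was -1.07 to -0.79. The call was lost without NSN replicate 1 or SN replicate 2. The 5 others were not called. Figla had 19.5 and 21.4 FPKM in NSN and 18.4 and 18.3 FPKM in SN libraries (log2 fold change -0.15, adjusted p = 0.33 in limma), and Lhx8 had a log2 fold change of -0.29 (adjusted p = 0.069 in limma). The fall of Nobox and those of Gdf9 and Bmp15 were not tested against each other.

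**Figure D5:**
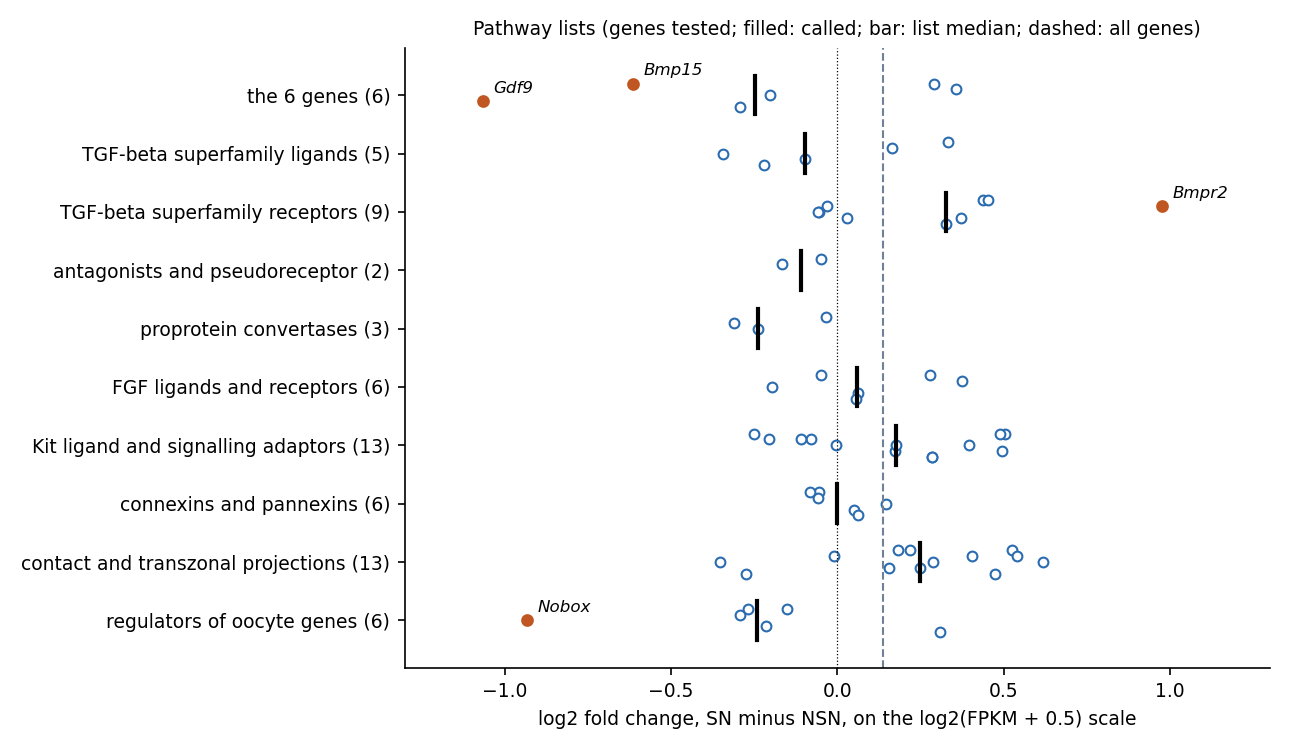
Log2 fold change from NSN to SN oocytes of each tested gene in the 6 genes and 9 pathway lists (number tested in brackets), with filled orange points for called genes, open points for the others, black bars for list medians and a dashed line for the median of all genes tested. Gdf9, Bmp15, Bmpr2 and Nobox are the called genes.

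For each gene but Fgf8, the tested genes with a mean of at least 20 FPKM were ordered by how closely their log2 values, centred on their own mean, followed it over the 4 libraries. Likeness over so few libraries is a description and many genes come close. Nearest to Gdf9 was Tle6, a subcortical maternal complex gene, with a root mean square difference of 0.06 (log2), and then Tspan3 and Gm8451 at 0.10 and 0.11. Tle6 had 2685 and 2381 FPKM in the NSN and 1382 and 1192 FPKM in the SN libraries. Nearest to Bmp15 were Isca1, Traip and Tuba1c at 0.02 to 0.03. The genes nearest to Gja4 were Msl3, Cct7 and Fpgs. Those nearest to Kit were Urod, Senp8 and Igbp1, and those nearest to Bmp6 were Clybl, Zfp420 and Mtus1. Among the 6 genes themselves, Kit and Bmp6 were nearest to each other (0.06) and Gdf9 and Bmp6 farthest apart (0.72).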

How the data were processed

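The authors trimmed the reads with Trim Galore 0.6.10, mapped them to GRCm39 with HISAT2 and GENCODE vM34, counted primary read pairs on exons with featureCounts without strand, and deposited FPKM from a script of their own. Library totals, and the gene length and whole read pairs of 16843 of 16861 genes, were recovered from the FPKM through 5 mitochondrial tRNA genes. Positions and overlaps came from GENCODE vM39 on the same build. Fits used limma 3.58.1 in R 4.3.3 (lmFit, eBayes with a variance trend) on log2(FPKM + 0.5). Fold changes on this scale understate the change of low genes. The fit was also tried on simulated data with a fixed spread and no shift of the median gene. Nothing about the calls here is read from that trial. Other steps used Python 3.11.15, scipy 1.17.1 and matplotlib 3.10.9. Alternatives were 2 pseudocounts, 2 filters, 3 scalings, no trend, a replicate block, voom on recovered read pairs and each library left out. The labels mention 3 samples a group, but the data hold 2 a group, and all of these were analysed. Members and lists were chosen with earlier results of these data known. Named genes are the 6, genes overlapping them or starting within 5 kb, up to 4 called genes per list, a fixed set of receptors, ligands, convertases and regulators, and the 3 nearest in pattern to each, which for Fgf8 are not reported here. Fyn, Pik3cd, Tgfb2, Tgfb3, Bmp5, Twsg1, Bambi, Ctnnb1, Daam1, Jag1, Rdx and Lhx8 were named after their values were seen.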

Additional observations from a re-analysis of the deposited data

How the results depend on the processing

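Gdf9 and Bmp15 were lower in SN oocytes under all 10 alternatives and all 4 omissions of a library, and no value of the 6 genes changed sign. Calls moved more. The number of genes called was 926 in the reported fit, 0 with all listed genes tested (4092 at an unadjusted p under 0.05) and 0 without the variance trend (3449), against 1496 at a mean of at least 5 FPKM, 258 with median scaling, 230 with quantile normalization (74 higher, 156 lower), 255 with totals without the 100 most abundant genes (113 higher, 142 lower) and 2298 with voom. Leaving out 1 library gave 0 (without NSN replicate 1, 2278 at an unadjusted p under 0.05) to 1685 (without NSN replicate 2), with 148 without SN replicate 1 and 11 without SN replicate 2. Of the 6 genes, 2 were called, against 0 with all listed genes (limma adjusted p = 0.054 for Gdf9 and Bmp15), 0 without the trend (0.092), 4 with voom, and 0 to 2 with 1 library left out. Of the pathway genes 2 were called, against 0 with all listed genes, 0 without the trend, 8 at a mean of at least 5 FPKM, 12 with voom, and 0 to 7 with 1 library left out. With the replicate number as a block, 422 genes were called (266 higher, 156 lower) and Gdf9 and Bmp15 among them. The deviations of same-numbered libraries had a correlation of -0.07 over the genes tested. Many of those genes are at low levels, so this value cannot decide whether the numbers mark a pairing. The reported fit used none. The Fgf8 to Gja4 log2 ratio differed by 0.09 between groups and by -0.0046 to 0.18 with 1 library left out. Signs also turned for 6 named genes that were not called: Fgfr1 (-0.048 with median scaling, -0.026 with quantile normalization, -0.00042 with totals without the 100 most abundant genes, and -0.085 to 0.195 with 1 library left out), Rdx (-0.165 to 0.014 over the alternatives, -0.033 to 0.012 with 1 library left out) and, with 1 library left out but under none of the alternatives, Tgfbr1 (-0.235 to 0.121), Furin (-0.26 to 0.19), Twsg1 (-0.383 to 0.049) and Bambi (-0.153 to 0.056). The causes were not tested. Bmp6, at 277 to 392 read pairs, is the gene whose precision depth limits most.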
